A study of Arabidopsis thaliana with 16 samples.

Results

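The 7 chitinase genes described here were the basic chitinase, given by the probe set that the study names so, the class V chitinase ChiC, the chitinase CHI, and the chitinase-family genes AT2G43580, AT2G43590, AT2G43620 and AT3G47540. They were chosen with earlier results of these data known, so their counts and medians below are not independent of that choice. Each had a probe set among the 22746 tested on the *Arabidopsis* ATH1 array, with a value on all 16 arrays. A value is not a detection call. AT2G43580 had a signal of at most 1 on 1 array each of the 24 h controls, 48 h controls and 24 h volatile plants. Plants of 4-week-old Col-0 *A. thaliana* were used in 2 experiments, and tissue of at least 8 plants was pooled for each array. The labels give leaves as the tissue of all 16 samples, but they also call the plants seedlings, and for the receivers of volatiles the methods describe only the freezing of plants, so what was collected from them is not settled. In the volatile experiment, receiver plants shared a jar with leafminer-damaged Lima beans for 24 h (2 arrays) or 48 h (3 arrays), and their controls shared it with healthy Lima beans for 24 h (2 arrays) or 48 h (3 arrays), so all 4 groups were exposed to bean plants. In the feeding experiment, leaves carrying leafminer larvae (3 arrays) were picked because they were damaged, and were compared with leaves of healthy plants (3 arrays). Fed leaves were taken when the larvae had reached the second instar, a time counted from egg laying and not matched to either exposure time.

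Chitin is the polymer of N-acetylglucosamine that stiffens fungal cell walls and lines the cuticle and the gut of insects. Plants do not make chitin but encode many chitinases, which cut the polymer, damage fungal walls and release fragments that receptors on the cell surface perceive. Basic chitinases are stored in the vacuole and belong to the pathogenesis-related proteins, and the basic chitinase gene of *A. thaliana* is a standard marker of ethylene and jasmonate signaling. ChiC encodes a chitinase of a different fold, whereas the single roles of the other chitinase-family genes named here are less well described.

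The basic chitinase was the 1 gene of the 7 that the study also followed by PCR, and it was picked for that because of its change on the 48 h arrays, so its 48 h value is not independent of that choice. Its primers, each 20 bases long and written 5′ to 3′, are shown because they define the transcript that was followed, and the array probe set was not matched to a sequence here.
basic chitinase sense primer: atgaaactacaggtggatgg
basic chitinase antisense primer: aggtcagggttgttgagtaa
The platform annotation used here does not pair this probe set with a gene. The RefSeq table gives the name basic chitinase to 1 gene, HCHIB (AT3G12500), and whether the probe set reads that gene was not tested.

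The values are linear MAS5 signals, and signals below 1 were set to 1 before log2 values were taken. A gene was called up- or down-regulated when its Benjamini-Hochberg adjusted p over all 22746 probe sets was at most 0.05 in limma and its change was at least 2-fold. The arrays did not share 1 scale, with medians between 19.2 and 30.3, and over all probe sets the median log2 change came to 0.31 at 24 h, 0.07 at 48 h and 0.14 with feeding. The methods call the replicates independent without saying whether they were grown apart, so p-values measure the spread between these pooled samples, which may be technical, and the number of arrays limits the precision. RCA, the Rubisco activase of the leaf mesophyll and the 1 gene of 5 mesophyll markers with a named probe set, had signals between 2301 and 3211 on the 10 arrays of the volatile experiment and between 3985 and 4836 on the 6 of the feeding experiment.

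**Figure D1:**
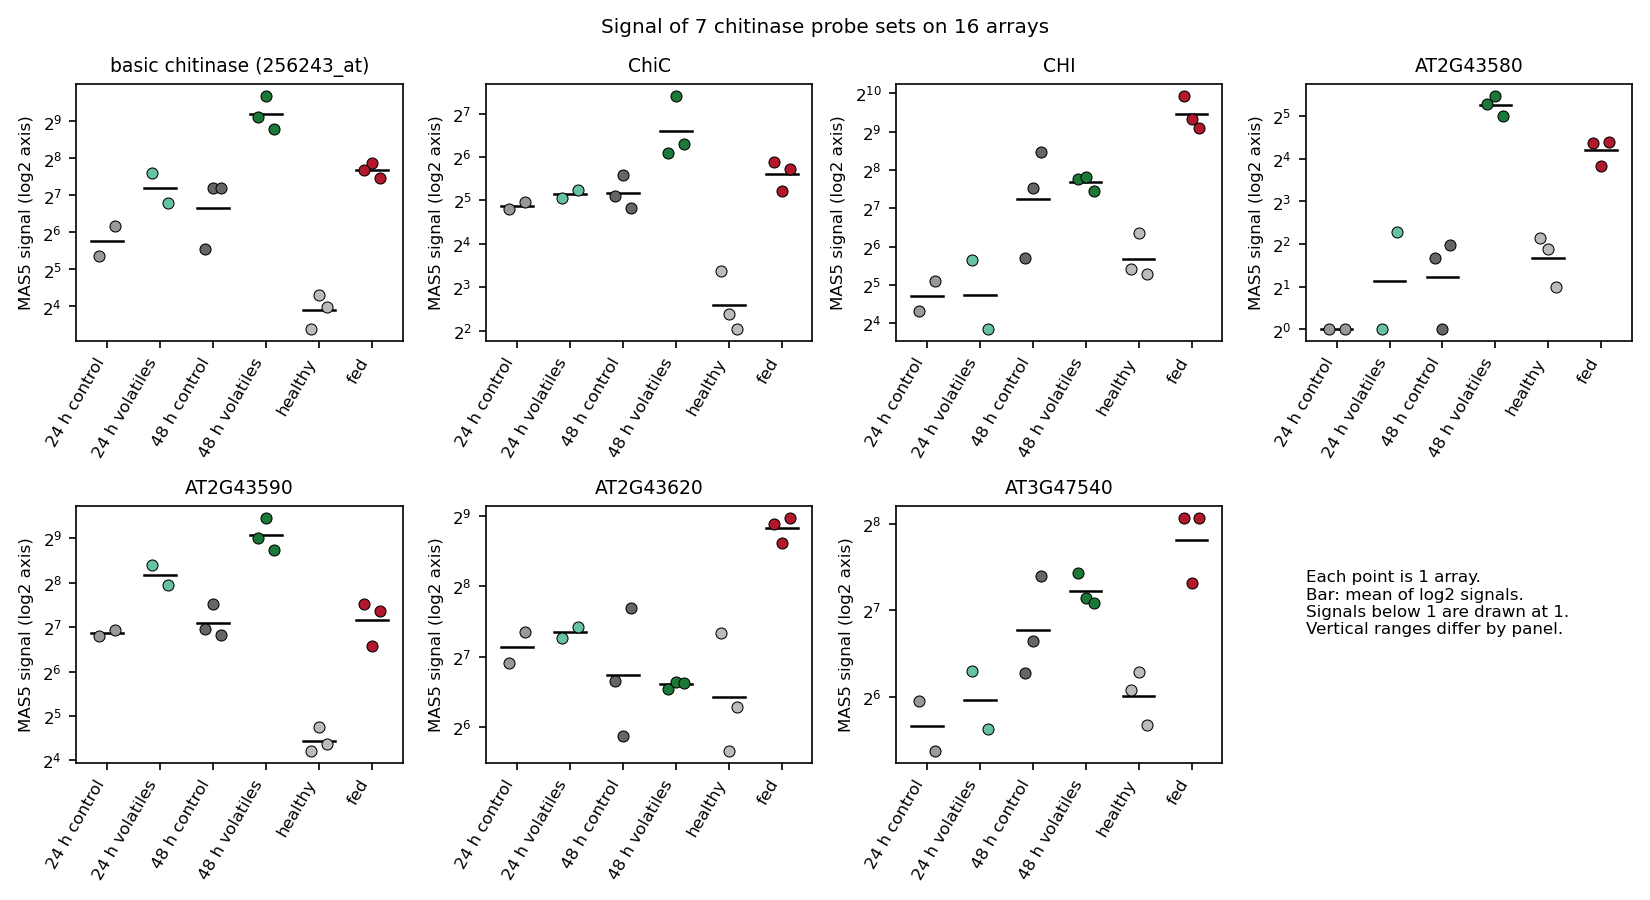
MAS5 signal (log2 axis) of each of the 7 chitinase genes on the 16 arrays, by group; points are arrays and bars are means of the log2 signals. All fed arrays lie above all healthy arrays in every panel, whereas the 48 h volatile arrays lie above the 48 h controls for the basic chitinase, ChiC, AT2G43580 and AT2G43590 but not for CHI, AT2G43620 or AT3G47540.

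After 48 h of exposure to volatiles of damaged beans, the transcripts of 3 of the 7 chitinases were higher than in the plants kept with healthy beans, namely AT2G43580, the basic chitinase and AT2G43590, and 0 were lower. With an unadjusted p under 0.05 in limma, 4 were higher and 0 lower. Over all probe sets 0.558% were called up (127 of 22746), 0.207% were called down and 13.2% had an unadjusted p under 0.05. The median log2 fold change of the 7 genes was 1.43, against 0.07 for all probe sets, and 4 of the 7 had no overlap between the groups, where 8.82% of all probe sets had none with the volatile arrays higher. Because pooled tissue was measured, more cells with the transcript and more transcript in each cell cannot be told apart.

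AT2G43580 was close to the bottom of the scale in the 48 h controls, with signals of 3.19, 0.519 and 3.96, and reached 38.8, 44.3 and 32.2 on the volatile arrays. All 3 volatile arrays were thus far above all 3 controls. The log2 mean was 1.22 ± 1.07 in the controls and 5.25 ± 0.23 with volatiles (SD, n = 3 each), which gave a rise of 4.03 (SE 0.60 and adjusted p = 0.0139). Its size rests on the lowest control signals, since with signals below 16 set to 16 the log2 fold change was 1.25 and still called.

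The basic chitinase had signals of 47.4, 147 and 148 in the 48 h controls and of 555, 823 and 445 with volatiles. The control arrays differed among themselves by a wide margin, but the highest of them was below the lowest volatile array. Its log2 fold change was 2.54 (SE 0.44 and adjusted p = 0.0207), that is 5.81-fold. Without the first or the second volatile array the call was lost (adjusted p = 0.0658 and 0.0692).

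AT2G43590 had signals of 125, 183 and 114 in the controls and of 516, 708 and 428 with volatiles. The groups did not overlap, and both had a similar spread (SD 0.36 and 0.37 on the log2 scale, n = 3 each). The log2 fold change was 1.97 (SE 0.27 and adjusted p = 0.0111), or 3.92-fold, and the gene stayed called whichever 1 of the 6 arrays was left out, as did AT2G43580. The calls of all 3 genes were lost when the 6 arrays were fitted without the other 10 (adjusted p = 0.205 for AT2G43580 and AT2G43590 and 0.316 for the basic chitinase), a fit in which 7 probe sets were called.

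ChiC had signals of 34.1, 48.0 and 28.4 in the 48 h controls and 68.3, 169 and 78.7 with volatiles. The groups were separate, but the second volatile array was well above the other 2, and the log2 fold change of 1.43 (SE 0.38 and adjusted p = 0.112) fell short of a call. Quantile normalization of the arrays brought it past the threshold (1.36, adjusted p = 0.045), as did median scaling (adjusted p = 0.0348). It was also called as log2 of the signal plus 16 (1.12, adjusted p = 0.0232) and among the upper 60% of probe sets (adjusted p = 0.0253). With the replicate block (adjusted p = 0.105) and on the arrays of this comparison alone (adjusted p = 0.42) it was not.

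The other 3 genes overlapped between volatile and control arrays at 48 h. CHI had control signals of 51.7, 186 and 354, a 95% interval of the log2 fold change from -0.92 to 1.81, and volatile signals of 216, 227 and 175 within the range of the controls. AT3G47540 had control signals of 77.6, 100 and 169 and volatile signals of 172, 141 and 135, with an interval from -0.23 to 1.12. AT2G43620 had control signals of 101, 58.5 and 207 and volatile signals of 93.0, 100 and 99.1, with an interval from -1.07 to 0.80. For these 3 genes the volatile arrays lay closer together than the controls, with SDs of 0.20, 0.18 and 0.06 on the log2 scale against 1.41, 0.57 and 0.91 (n = 3 each).

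**Figure D2:**
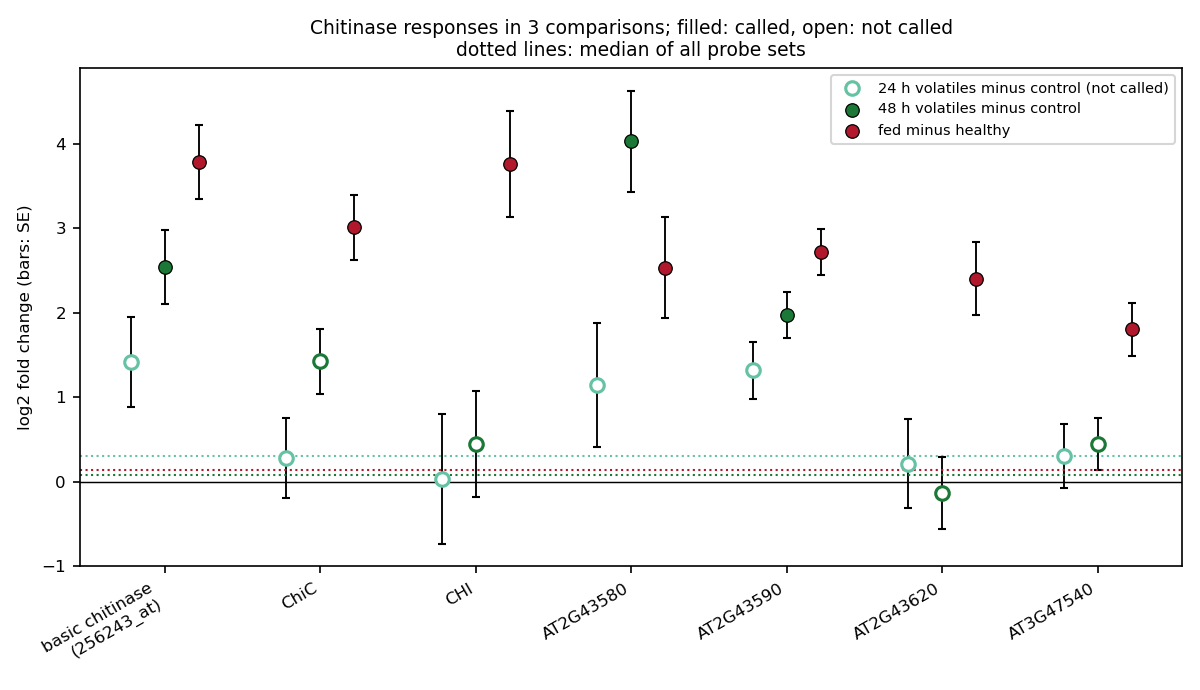
Log2 fold change (points) and its moderated SE (bars) of the 7 chitinase genes in 3 comparisons, with called genes filled and the median of all probe sets dotted. With feeding all 7 are filled and lie between 1.80 and 3.79, at 48 h 3 are filled, and at 24 h none is.

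In leaves fed on by leafminers all 7 chitinase transcripts were higher than in healthy leaves, by 3.49-fold to 13.8-fold. In this comparison 12.8% of all probe sets were called up (2902 of 22746), and 27.1% had fed arrays above all healthy ones. The median log2 fold change of the 7 genes was 2.72, against 0.14 for all probe sets, and their calls were kept without any 1 of the 6 arrays. The root marker PYK10 was also higher in fed leaves, with signals between 513 and 1054 against 71.7 to 116 in healthy ones, and its part in the chitinase results was not tested.

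The largest changes were those of the basic chitinase and CHI. The basic chitinase had signals of 10.4, 19.7 and 15.9 in healthy and of 208, 233 and 177 in fed leaves, with a log2 fold change of 3.79 (SE 0.44 and adjusted p = 3.77e-05). CHI had signals of 43.0, 82.5 and 38.9 in healthy and of 970, 639 and 550 in fed leaves, with one of 3.76 (SE 0.63 and adjusted p = 6.2e-04). As log2 of the signal plus 16 the change was 2.83 for the basic chitinase and 3.39 for CHI, called for each. In both genes the lowest fed array was several times above the highest healthy array.

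ChiC went from 10.3, 5.22 and 4.07 to 58.9, 37.2 and 52.5, a log2 fold change of 3.01 (SE 0.38 and adjusted p = 8.51e-05), which became 1.60 with signals below 16 set to 16 and was still called. AT2G43590 went from 18.5, 26.7 and 20.5 to 184, 96.1 and 164, a change of 2.72 (SE 0.27 and adjusted p = 1.3e-05). These genes were low in all healthy plants and higher in all fed ones. AT2G43580 had signals of 4.42, 3.68 and 1.99 in healthy and of 20.7, 14.2 and 21.1 in fed leaves, a change of 2.53 (SE 0.60 and adjusted p = 0.0064). Because both groups were low on the scale, this call did not hold with signals below 16 set to 16 (0.26, adjusted p = 0.133), nor did the change reach 2-fold as log2 of the signal plus 16 (0.84).

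AT2G43620 and AT3G47540, which had overlapping groups at 48 h, were separated by feeding. AT2G43620 had 161, 50.5 and 77.7 in healthy and 473, 393 and 503 in fed leaves (log2 fold change 2.40, SE 0.43 and adjusted p = 0.00103). AT3G47540 had 67.4, 78.0 and 51.2 in healthy and 268, 159 and 267 in fed leaves (1.80, SE 0.31 and adjusted p = 7.98e-04). For both genes the second fed array was the lowest of its group and still above every healthy array.

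At 24 h 0 of the 7 chitinases were called in limma and 2, AT2G43590 and the basic chitinase, had an unadjusted p under 0.05, where 0.0176% of all probe sets were called in either direction (4 of 22746) and 12.6% had an unadjusted p under 0.05. AT2G43590 had signals of 111 and 122 in the controls and of 339 and 248 with volatiles, with a log2 fold change of 1.32 (SE 0.34 and adjusted p = 0.308). The basic chitinase had 41.3 and 72.7 in the controls and 194 and 110 with volatiles, with one of 1.42 (SE 0.53 and adjusted p = 0.362). These genes and ChiC had no overlap between the groups, but neither did 47.1% of all probe sets, which were higher on the volatile arrays. With the median shift of 0.31 taken off, the changes of AT2G43590 and the basic chitinase were 1.01 and 1.11.

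The other 5 genes had no unadjusted p under 0.05 at 24 h. ChiC had 27.7 and 31.2 against 33.5 and 37.9, CHI had 20.0 and 34.5 against 50.4 and 14.3, and AT3G47540 had 61.8 and 41.5 against 78.7 and 49.4, controls first. The volatile arrays of CHI lay on either side of its controls. AT2G43620 had 120 and 163 against 154 and 171, and AT2G43580 had 0.835 and 1.00 against 0.391 and 4.91, so its change of 1.14 came from 1 array. All 7 log2 fold changes were above 0 as deposited, where 76% of all probe sets were, but those of ChiC, CHI, AT2G43620 and AT3G47540 were below 0 after quantile normalization and after median scaling.

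The longer exposure was not shown to give a larger chitinase response. Tested gene by gene, the response at 48 h was above that at 24 h by 2.89 on the log2 scale for AT2G43580 (95% interval 0.83 to 4.94, adjusted p = 0.544), by 1.15 for ChiC (-0.17 to 2.47), by 1.12 for the basic chitinase (-0.38 to 2.62) and by 0.65 for AT2G43590 (-0.29 to 1.60), and 0 of the 7 were called. In limma 1 of them, AT2G43580, had an unadjusted p under 0.05, as did 7.67% of all probe sets, of which 0.022% were called (5 of 22746). For AT2G43580 the difference was called as log2 of the signal plus 16 (1.42, adjusted p = 0.005) and with signals below 16 set to 16 (1.25, adjusted p = 0.0242).

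The control plants of the 2 exposure times were also compared. CHI was at 20.0 and 34.5 in the 24 h controls and at 51.7, 186 and 354 in the 48 h controls, a log2 difference of 2.52 (SE 0.70 and adjusted p = 0.53), and only 11 probe sets had a larger rise. AT3G47540 was at 61.8 and 41.5 and at 77.6, 100 and 169, a difference of 1.11 (SE 0.35 and adjusted p = 0.614). In both genes the 2 groups of controls did not overlap, which was so for 17.8% of all probe sets with the 48 h controls higher, and 0 of the 7 genes were called (0.0132% of all probe sets, 3 of 22746). In limma these 2 genes had an unadjusted p under 0.05, as did 6.92% of all probe sets. The first 48 h control array was the lowest of its group for CHI, AT3G47540 and the basic chitinase.

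Chitinases differed in how the response to feeding compared with that to 48 h of volatiles. These responses were not matched in time, so time and the kind of treatment cannot be told apart. The feeding response was larger for CHI, by 3.31 on the log2 scale (SE 0.89 and adjusted p = 0.0235), and for AT2G43620, by 2.54 (SE 0.61 and adjusted p = 0.0131), among 8.8% of all probe sets called in that direction (2002 of 22746). The difference for AT2G43620 stayed called without any 1 of the 12 arrays. That for CHI was lost in 6 of those 12 repeats, with adjusted p up to 0.0612, among them the repeats without the second or the third 48 h control, in which CHI was high. With the replicate number as a block it was lost as well (adjusted p = 0.0622).

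For 4 of the genes the difference was above 0 without a call. It was 1.58 for ChiC (95% interval 0.40 to 2.77, adjusted p = 0.0705), 1.36 for AT3G47540 (0.40 to 2.31, adjusted p = 0.0553), 1.25 for the basic chitinase (-0.10 to 2.59) and 0.75 for AT2G43590 (-0.10 to 1.59). As log2 of the signal plus 16 it was 0.49 for the basic chitinase and 0.22 for AT2G43590. ChiC and AT3G47540 were called after median scaling (adjusted p = 0.0301 and 0.0321), but the difference for ChiC, whose healthy signals were low, shrank to 0.41 as log2 of the signal plus 16 (adjusted p = 0.477) and to 0.18 with signals below 16 set to 16. AT2G43580 was the 1 gene with the larger value for volatiles, and its difference of -1.50 had an interval from -3.34 to 0.34. As log2 of the signal plus 16 its difference was -0.71 (adjusted p = 0.00796 in limma), under 2-fold and so not called.

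**Figure D3:**
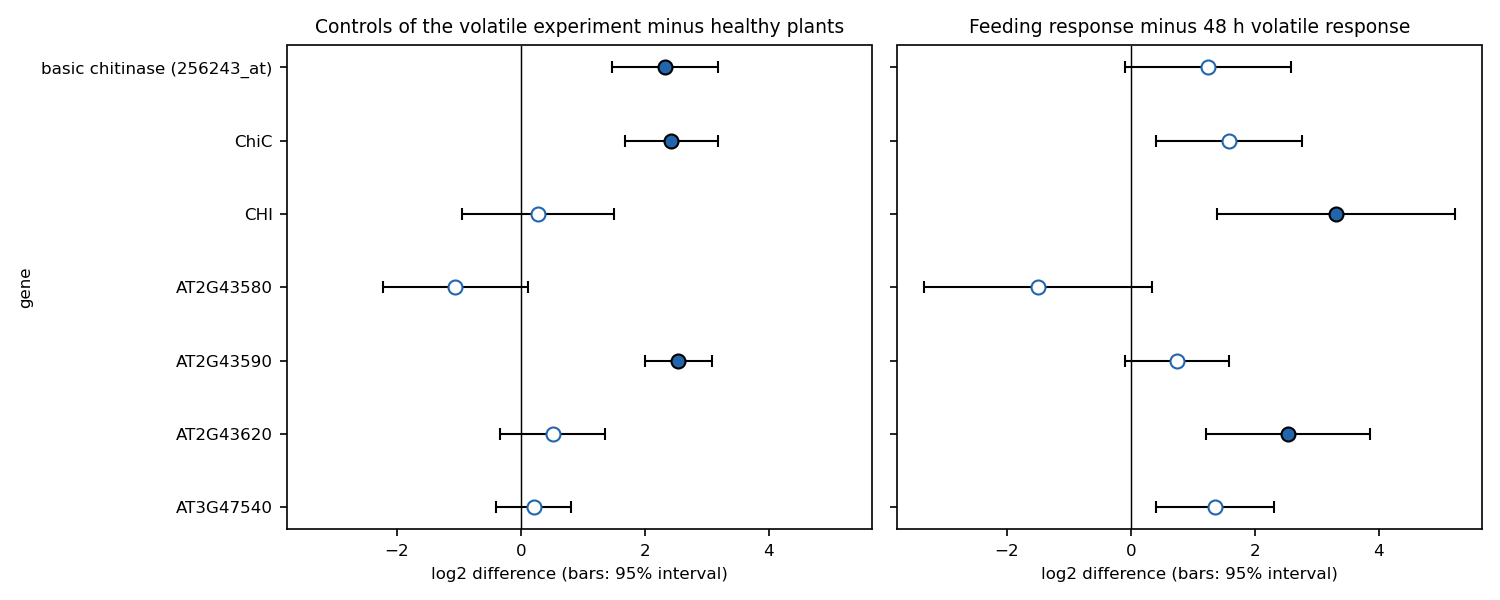
Log2 differences (points) with 95% intervals (bars) for each chitinase gene, between the controls of the volatile experiment and healthy plants of the feeding experiment (left) and between the feeding response and the 48 h volatile response (right); filled points were called. On the left the basic chitinase, ChiC and AT2G43590 are filled with differences from 2.33 to 2.55, and on the right CHI and AT2G43620.

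Healthy plants of the feeding experiment and control plants of the volatile experiment did not have the same chitinase levels. AT2G43590 was 5.84-fold higher in the controls of the volatile experiment (log2 difference 2.55, SE 0.25 and adjusted p = 1.44e-05), ChiC 5.39-fold (2.43, SE 0.35 and adjusted p = 2.42e-04) and the basic chitinase 5.01-fold (2.33, SE 0.39 and adjusted p = 8e-04), against a median of -0.18 over all probe sets. For ChiC the size rests on the low healthy signals, and its difference was 1.12 as log2 of the signal plus 16 and 1.02 with signals below 16 set to 16, called in both. As log2 of the signal plus 16 the difference was 1.57 for the basic chitinase and 1.92 for AT2G43590, also called. For each of these 3 genes all 5 controls were above all 3 healthy arrays, as was so for 11.2% of all probe sets, and 6.46% were called in that direction (1470 of 22746). The 4 other genes overlapped between these groups, with differences of 0.51 for AT2G43620, 0.28 for CHI, 0.21 for AT3G47540 and -1.06 for AT2G43580. The controls' stay in a jar beside healthy beans and any other difference between the 2 experiments cannot be told apart.

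A root marker was called between the same groups, and a mesophyll and a guard cell marker had differences under 2-fold that were not called. PYK10 was the 1 gene of 3 root markers with a named probe set. Its signals, between 71.7 and 116 in healthy leaves, lay between 697 and 1491 in the volatile experiment. It was higher by 3.54 (SE 0.28 and adjusted p = 2.81e-06) in the volatile controls than in healthy plants and by 3.18 (SE 0.31 and adjusted p = 9.03e-06) with feeding, but by 0.13 (SE 0.31 and adjusted p = 0.926) at 48 h of volatiles. The mesophyll marker RCA was lower in the volatile controls than in healthy plants, by -0.74 on the log2 scale (SE 0.14 and adjusted p = 0.00171) and without overlap. FMA, a guard cell regulator and the 1 gene of 2 guard cell markers measured, had signals between 20.0 and 32.9 in the volatile controls and between 32.6 and 46.2 in healthy plants, a difference of -0.61 (SE 0.19 and adjusted p = 0.0243) with overlap. The part of these 3 genes in the chitinase results was not tested, and 0 of the 9 flower, trichome and phloem markers had a named probe set.

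The order of the 6 groups therefore differed from gene to gene. For AT2G43590 the mean log2 signal was highest with 48 h of volatiles (9.07 ± 0.37, SD, n = 3), then with 24 h of volatiles (8.18 ± 0.32, n = 2), followed by fed leaves (7.16 ± 0.50, n = 3) and the 48 h and 24 h controls, which did not differ beyond their spread (7.10 ± 0.36, n = 3, and 6.86 ± 0.10, n = 2), and healthy leaves came last (4.44 ± 0.27, n = 3). The fed arrays of this gene thus overlapped with undamaged controls of the other experiment. For the basic chitinase the order began with 48 h of volatiles (9.20 ± 0.45, n = 3) and fed leaves (7.68 ± 0.20, n = 3), the next groups overlapped, and healthy leaves were again lowest (3.89 ± 0.47, n = 3).

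ChiC also had its highest level with 48 h of volatiles (6.60 ± 0.70, n = 3) and its lowest in healthy leaves (2.59 ± 0.69, n = 3), and its fed leaves (5.60 ± 0.35, n = 3) overlapped with the 48 h controls (5.17 ± 0.38, n = 3). AT2G43580 was highest with 48 h of volatiles, then in fed leaves (4.20 ± 0.32, n = 3), and the other 4 groups overlapped with their neighbours in the order. In CHI, AT2G43620 and AT3G47540 fed leaves came first (9.45 ± 0.42, 8.83 ± 0.19 and 7.81 ± 0.43, n = 3 each). In CHI and AT2G43620 they were separate from the next group, and below them neighbouring groups overlapped, whereas in AT3G47540 the fed leaves overlapped with 48 h of volatiles.

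CHI and 3 more of the chitinases lie in 1 run of 6 neighbouring genes on chromosome 2, in the order CHI (AT2G43570), AT2G43580, AT2G43590, AT2G43600, AT2G43610 and AT2G43620, with no other protein-coding gene between them in the RefSeq table of TAIR10.1. The 2 inner genes that are not among the 7, both of the chitinase family, stayed low on all arrays. AT2G43600 had signals between 0.346 and 1.63 and AT2G43610 between 4.76 and 17.6, with log2 fold changes of 0.14 and 0.00 at 48 h and of -0.07 and -0.04 with feeding. Along the run the 48 h response was called for AT2G43580 and AT2G43590, and the feeding response for those genes, CHI and AT2G43620. Probe sequences were not analysed here, so a share of signal from a related neighbour was not tested.

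**Figure D4:**
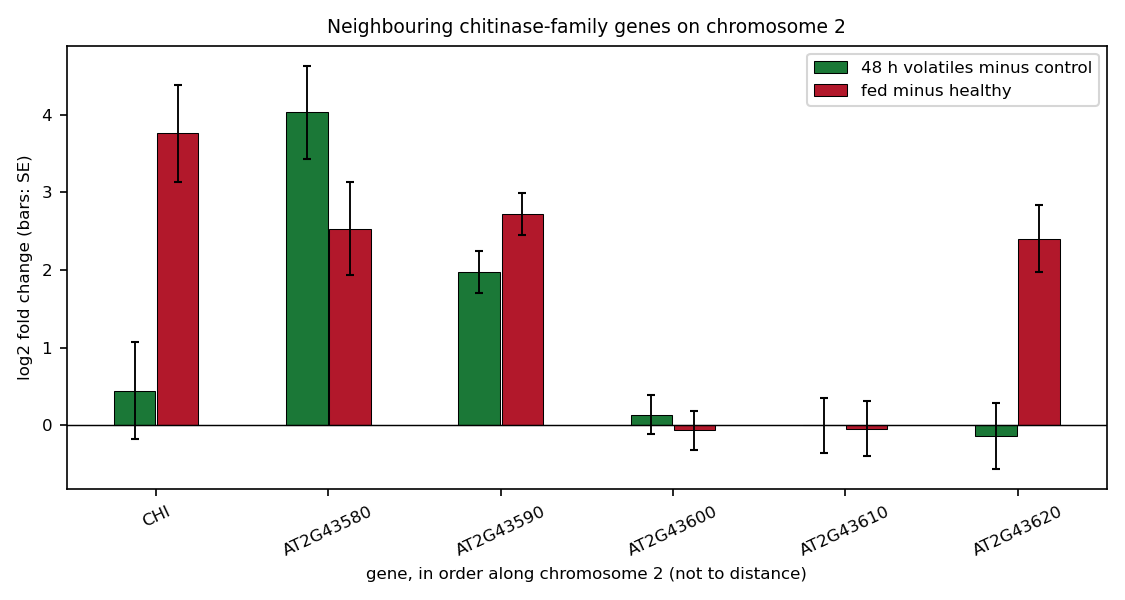
Log2 fold change (bars) and SE (lines) of the 6 neighbouring chitinase-family genes on chromosome 2, in their order along it, after 48 h of volatiles and with feeding. AT2G43600 and AT2G43610 stay near 0 in both comparisons, and CHI and AT2G43620 are high with feeding alone among those 2 comparisons.

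Of 17 other chitinase genes listed for comparison, 9 had a named probe set, and 0 were called at 24 h or at 48 h. In limma 1 had an unadjusted p under 0.05 at 24 h, where AT4G19720 was lower with signals of at most 3.55. At 48 h 2 had one, AT1G56680, higher with signals of at most 2.61, and AT4G19820, lower. Over all probe sets 12.6% and 13.2% had an unadjusted p under 0.05 at 24 h and 48 h. With feeding 2 were called up and 1 down, against 12.8% of all probe sets called up and 6.49% called down. The median log2 fold change of the 9 genes was -0.04 with feeding and 0.13 at 48 h. However, AT1G56680, AT2G43600, AT4G19720, AT4G19730 and AT4G19740 had signals of at most 9.09 on every array. For genes so low on the scale a missing call does not show a missing response, and the counts and medians of this list are limited by them. AT1G02360 rose from signals between 3.64 and 11.7 to signals between 46.0 and 74.0 (log2 fold change 3.24, SE 0.45 and adjusted p = 1.7e-04), and AT4G01700 from between 33.8 and 52.5 to between 170 and 244 (2.32, SE 0.28 and adjusted p = 5.6e-05). AT4G19820 fell from signals between 13.8 and 18.9 to signals between 4.8 and 6.9 (log2 fold change -1.37, SE 0.34 and adjusted p = 0.00839). Because both groups were low on the scale, the size of this fall is uncertain. The feeding response exceeded that to 48 h of volatiles in AT1G02360 (4.00, SE 0.64 and adjusted p = 0.00124) and AT4G01700 (1.88, SE 0.40 and adjusted p = 0.00666).

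Genes of chitin perception and its early signaling were measured for 3 of 14 listed genes. BIK1, a cytoplasmic kinase that relays signals of pattern receptors, had signals between 29.5 and 35.5 in healthy and between 158 and 233 in fed leaves (log2 fold change 2.60, SE 0.22 and adjusted p = 3.93e-06). WRKY53, a transcription factor of defense and senescence, went from between 20.5 and 36.6 to between 209 and 420 (3.44, SE 0.45 and adjusted p = 9.96e-05). Both rose with feeding and neither was called at 48 h (0.23 and 0.60, adjusted p = 0.743 and 0.639). The other gene measured, AT5G18610, had signals between 0.137 and 6.45 and was called in neither comparison (1.09 with feeding and -0.53 at 48 h, adjusted p = 0.235 and 0.803).

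The glucanase gene AT4G16260, of the family that cuts the glucans lying beside chitin in fungal walls and the 1 gene of 5 in its list with a named probe set, was measured in the same leaves. Its signals were between 27.7 and 61.5 in healthy leaves, 2117 and 2292 in fed leaves, 244 and 587 in the 48 h controls and 620 and 1343 with 48 h of volatiles. It rose with feeding by 5.76 (SE 0.41 and adjusted p = 1.11e-06) and had a log2 fold change of 1.49 (SE 0.41 and adjusted p = 0.121) at 48 h. EIN3, the transcription factor of ethylene signaling and the 1 gene of 15 in its list with a named probe set, had a log2 fold change of 0.88 (SE 0.25 and adjusted p = 0.0196) with feeding, under 2-fold, and -0.24 (SE 0.25 and adjusted p = 0.772) at 48 h.

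With each array centered on its median, the 5 genes with the profile most like the mean profile of the 7 chitinases over the 16 arrays were AT5G18470, AT1G70810, IDH-V, AT5G19440 and THI2.1, with Pearson's r between 0.94 and 0.97. The arrays share groups and experiments, so r describes the order of the groups. THI2.1, a thionin gene that jasmonate induces, had a log2 fold change of 5.44 (SE 0.50 and adjusted p = 6.64e-06) with feeding and 1.76 (SE 0.50 and adjusted p = 0.135) at 48 h. AT1G70810 was called at both, with 3.28 (SE 0.17 and adjusted p = 1.91e-07) and 1.23 (SE 0.17 and adjusted p = 0.0118). So was AT5G19440, with 1.96 (SE 0.13 and adjusted p = 7.1e-07) and 1.07 (SE 0.13 and adjusted p = 0.0057). The chitinases themselves had r between 0.45 for AT2G43620 and 0.89 for the basic chitinase with that mean. The mean includes each of them, which raises their r, so these values are not comparable with those of the other genes.

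Taken 1 by 1, the chitinases had different nearest genes. AT2G43590 was most like QPT, the quinolinate phosphoribosyltransferase of NAD synthesis (r = 0.97), SUFE2 (0.93) and AT1G19130 (0.93). The basic chitinase was most like AT1G27000 (0.94), AT4G19880 (0.93) and SUFE2 (0.93), and AT2G43580 most like AT3G09010 (0.90), AT1G77810 (0.85) and AT1G71140 (0.82). SUFE2, a partner of iron-sulfur cluster assembly, was shared by the first 2 of these lists and had a log2 fold change of 3.31 (SE 0.39 and adjusted p = 4.71e-05) with feeding. Without the centering, 3 of the 5 genes closest to the mean profile were the same. AT2G43590 was then most like PRXIIF, SUFE2 and AT4G16146, without QPT and AT1G19130, and AT2G43580 most like AT3G09010, AT2G20420 and AT1G77810. The genes nearest to the basic chitinase stayed the same.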

How the data were processed

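RNA of 16 samples in 6 groups, all labelled as leaves, was hybridized to *Arabidopsis* ATH1 arrays, 1 sample per array. The authors deposited linear signal intensities computed with Affymetrix MAS5. Their scaling target is not given in the sources used here, nor is it stated whether the GeneSpring normalization of the methods had been applied. Signals under 1 (9.62% to 13.3% per array) were replaced by 1, and the deposited values were then put on a log2 scale without rescaling or filtering.

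The array holds 22810 probe sets, and the 64 controls among them were not tested. The group means were modelled in R 4.3.3 with limma 3.58.1 and a variance trend, and 7 contrasts were adjusted by Benjamini-Hochberg over 22746 probe sets. A call needed an adjusted p of at most 0.05 and a 2-fold change. limma replaced the SAM test of the methods. SE is the moderated standard error. The fit was also run on simulated, normally distributed values without a floor and without shifts between arrays. That run therefore says nothing about low signals or array scale.

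The 7 genes and the gene lists were chosen with earlier results of these data known. All 7 were described, and of each list every measured gene was counted and at most 4 were named. Genes of like profile were those with the highest r among probe sets that match 1 gene. Of the probe sets, 13513 match 1 gene in the platform annotation. No pair of arrays held identical values. Alternatives were quantile normalization, median scaling, log2 of the signal plus 16, the upper 60% of probe sets, separate fits on each comparison's arrays, a block for the replicate number, omission of single arrays, no variance trend, a 1.5-fold threshold and no fold threshold. A floor of 16 was added after AT2G43580 was seen to be low. Plots were drawn with matplotlib 3.10.9.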

Additional observations from a re-analysis of the deposited data

Results flagged for a closer look

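The responses of 2 chitinases differed between the experiments by a test of the difference itself. For CHI the feeding response exceeded the response to 48 h of volatiles by 3.31 on the log2 scale (adjusted p = 0.0235), with log2 fold changes of 3.76 in one and 0.44 in the other, and the call was lost in 6 of 12 repeats with 1 array left out and with the replicate block. For AT2G43620 the excess was 2.54 (adjusted p = 0.0131), with values of 2.40 and -0.14. In both genes all 3 fed arrays were above all 3 healthy arrays, and the volatile arrays lay among their controls. No group had the 4 samples that a check for single outlying arrays needs.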

How the results depend on the processing

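Among the chitinases, the count called up at 48 h (3) was 0 in a fit on the 6 arrays alone and 1, AT2G43590, with the replicate block (adjusted p = 0.0776 for AT2G43580 and 0.0821 for the basic chitinase). It was 4, with ChiC added, after quantile normalization, after median scaling and as log2 of the signal plus 16. With the block CHI lost (adjusted p = 0.0622) and ChiC gained (0.0371) a call of a larger feeding than 48 h volatile response. The count with a larger feeding than 48 h volatile response (2) was 4 after median scaling and 4 among the upper 60% of probe sets, and between 1 and 4 when 1 array was left out. The count with a larger 48 h than 24 h response (0) was 1 as log2 of the signal plus 16 and 1 with the floor of 16. Same-numbered arrays of control and treated groups were hardly correlated (r of their deviations between -0.04 and 0.05), so the numbers were not taken as pairs.

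At 24 h AT2G43620, AT3G47540, CHI and ChiC turned to -0.18, -0.056, -0.28 and -0.050 after quantile normalization and to -0.10, -0.013, -0.28 and -0.035 after median scaling. With the block, volatile controls and healthy plants were compared at the fitted level of the first replicate of each experiment, not over all replicates. That difference was -0.082 for AT2G43620 and -0.059 for CHI, and it does not measure the same quantity as the main fit. With 1 array left out, values at 24 h ran from -0.0028 to 2.29 (AT2G43580), -0.0082 to 0.43 (AT2G43620), -0.037 to 0.64 (AT3G47540) and -0.87 to 0.94 (CHI), and at 48 h from -0.33 to 1.06 (CHI) and -0.57 to 0.34 (AT2G43620). The 48 h minus 24 h response ran from -0.19 to 0.48 (AT3G47540), -0.49 to 1.32 (CHI) and -0.78 to 0.13 (AT2G43620), the 48 h minus 24 h controls from -0.87 to 0.044 (AT2G43620), and controls minus healthy from -0.025 to 0.67 (CHI). The cause of the changes of sign with other scaling or with 1 array left out was not tested.

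Over all probe sets, the count called at 48 h (174) ran from 7 on the arrays alone and 47 with the block to 314 after quantile normalization and 334 after median scaling, with 73.0%, 58.6% and 57.2% of calls up as deposited, after quantile normalization and after median scaling. With 1 array left out it ran from 57 without the third to 416 without the first 48 h control. The count at 24 h (4) ran from 0 to 18 under other settings and from 15 to 23 with 1 array left out. With feeding (4378) it ran from 2723 as log2 of the signal plus 16 to 6704 without a fold threshold, and 66.3%, 48.4% and 50.1% of calls were up under the same 3 scalings. The depth of an array has no count, so low signals set a limit. This held among others for AT2G43580 and AT4G19820, and in healthy plants for ChiC, the basic chitinase and AT1G02360.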
